A study of Rattus norvegicus with 2 samples.

Results

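Carbonic anhydrases interconvert carbon dioxide and bicarbonate, so they set how fast a cell's pH follows a change in carbon dioxide. The carotid body, the arterial chemoreceptor at the carotid bifurcation, senses low oxygen, high carbon dioxide and acid, and its glomus cells are known to contain carbonic anhydrase activity. The enzymes of the family differ mainly in where they sit, from the cytosol and the mitochondrial matrix to the outer face of the plasma membrane. On the array used here, 3 of 1185 spots have a name that contains carbonic anhydrase or carbonate dehydratase, and these 3 spots are described below. They are carbonic anhydrase III (gene Car3, array identifier RG148), carbonic anhydrase 4 (Car4, RG236) and carbonic anhydrase 5 (Car5a, RG265). The name of the last spot does not separate the mitochondrial forms A and B, and Car5a was taken because the rat RefSeq gene table lists Ca5 as its synonym. In the rat assembly GRCr8, RefSeq places Car3 at chr2:88491666-88501299, Car4 at chr10:70325102-70333916 and Car5a at chr19:66881678-66911486. Other members of the family, such as the hypoxia-inducible Car9, were not analysed here.

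Primary cultures of carotid body cells from Sprague Dawley rats were kept for 7 days in chronic hypoxia (1% oxygen) or in normoxia (21% oxygen), both with 5% carbon dioxide. The low oxygen came from a closed chamber flushed with nitrogen and carbon dioxide, and gas and medium were renewed daily. Each culture pooled 16 carotid bodies, and both conditions shared a medium with horse and fetal bovine serum and nerve growth factor. Each condition was hybridised to 3 Atlas Rat 1.2 nylon membranes. The labels call the membranes replicates without saying whether they came from separate cultures, so the p-values below rest on membrane-to-membrane spread that may be only technical. The cells were not sorted by type before culture, as far as the labels say, so fewer cells of a type and less RNA per cell cannot be told apart.

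Overall brightness varied widely between membranes. Chronic hypoxia membrane 3 had a median intensity of 16411, against 1704 and 3409 on the other chronic hypoxia membranes and 2427, 3409 and 2681 on the normoxia membranes. Chronic hypoxia membranes 1 and 3 had the closest rank order of genes (Spearman 0.772 across genes, which are not independent replicates). A spot was called above background where it stood over the median of its membrane by more than 3 times the root mean square spread of the lower values. By this rule 152 of the 1185 spots (12.8%) were above background on at least 3 of the 6 membranes. Of 9 glomus cell markers on the array, 4 reached that level, namely Dbh, Slc6a3, Slc18a3 and Cpe, and 5 did not, among them Ddc and Chga. Of other markers, the endothelial genes Nos3, Edn1 and Ece1 (3 of 5) and the fibroblast gene Mmp2 (1 of 2) reached it. None of the 4 glial, 5 immune and 1 erythrocyte genes did. Dbh and Nos3 lie in membrane row C10 with the carbonic anhydrases, where 13 of 14 spots reached that level. The mean normalized log2 level of the endothelial markers lay between 11.25 and 12.73 in chronic hypoxia and between 12.27 and 13.17 in normoxia, and that of the glomus markers between 11.70 and 12.16 in chronic hypoxia and between 11.89 and 12.05 in normoxia. The part of cell composition in the results below was not tested.

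Each of the 3 carbonic anhydrase spots exceeded the background threshold on all 6 membranes, and all 18 values also exceeded a threshold of 5 times the spread. Of all 1185 spots, 49 exceeded the background threshold on all 6 membranes. They were 25 of the 42 spots in membrane rows C09 to C11, which hold the carbonic anhydrases, and 24 of the 1143 others. Brightness of different spots also depends on their cDNA fragments, so it does not rank the enzymes. The levels of all genes here are bulk values of the whole culture.

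Car4 encodes a carbonic anhydrase that is anchored by a lipid to the outer face of the plasma membrane, known from capillary endothelium and kidney tubules. Its intensity was 57129, 57917 and 55391 on chronic hypoxia membranes 1 to 3, against 53059, 21045 and 64280 on normoxia membranes 1 to 3. The chronic hypoxia values were close to each other, while normoxia membrane 2 was low and normoxia membrane 3 was within 5% of the highest value the files can hold, so the unnormalized groups overlapped. Among the 1185 spots Car4 ranked 9, 8 and 11 from the top on the chronic hypoxia membranes and 15, 23 and 15 on the normoxia membranes. After quantile normalization, which works on such ranks, Car4 had a log2 intensity of 15.58 ± 0.07 (SD, n = 3) in chronic hypoxia and 15.20 ± 0.18 (SD, n = 3) in normoxia. The 2 groups did not overlap, as for 144 of the 1038 genes tested (13.9%), or for 67 (6.45%) with chronic hypoxia higher. Within the 152 spots of the brighter subset the shares were 12.5% in either direction and 6.58% with chronic hypoxia higher. The difference was 0.38 on the log2 scale, or 1.30-fold, with an SE of 0.52 and a 95% confidence interval from -0.78 to 1.53. This SE draws on the spread of all 1038 genes tested as well as on that of Car4. It was 0.35 with only the 152 brighter spots tested and 0.26 without background correction. The Car4 difference did not pass the test (limma adjusted p = 0.863 over 1038 genes), nor in those 2 settings (limma adjusted p = 0.836 and 0.755). A two-sided exact permutation test gave p = 0.1, the smallest that 3 against 3 membranes allow. Without normoxia membrane 2 the Car4 difference was 0.24.

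Car3 encodes a cytosolic form with low carbon dioxide hydration activity, best known from skeletal muscle, fat and liver. Its intensity was 13791, 9522 and 27875 on the chronic hypoxia membranes, against 19352, 16680 and 46300 on the normoxia membranes. Chronic hypoxia membrane 3 lies within the normoxia range, but its membrane median alone was 16411. The ratio of the spot to the membrane median was lower there than on any other membrane. That ratio falls as background rises, and in intensity units chronic hypoxia membrane 2 stood less far above its median. Intensity was 8.09, 2.79 and 1.70 times the membrane median in chronic hypoxia and 7.97, 4.89 and 17.3 times in normoxia. Normalized log2 intensity was 13.74 ± 0.63 (SD, n = 3) in chronic hypoxia and 14.15 ± 0.30 (SD, n = 3) in normoxia. The groups overlapped, and the difference of -0.42, with an SE of 0.57 and a 95% confidence interval from -1.69 to 0.85, did not pass (limma adjusted p = 0.863, exact permutation p = 0.4). Without chronic hypoxia membrane 3 the Car3 difference was -0.11.

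Car5a encodes a mitochondrial form that supplies bicarbonate to carboxylation reactions, best known from liver. Its intensity was 22160, 40362 and 52299 on the chronic hypoxia membranes, against 31297, 23611 and 65444 on the normoxia membranes, the last of these within 5% of the ceiling. Both groups spanned more than a doubling of intensity and overlapped almost completely. Normalized log2 intensity was 15.02 ± 0.58 (SD, n = 3) in chronic hypoxia and 15.11 ± 0.61 (SD, n = 3) in normoxia. The difference was -0.09 with an SE of 0.60 and a 95% confidence interval from -1.41 to 1.23 (limma adjusted p = 0.991, exact permutation p = 0.8). Its sign depended on single membranes, with 0.24 without chronic hypoxia membrane 1 and 0.23 without normoxia membrane 3.

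**Figure D1:**
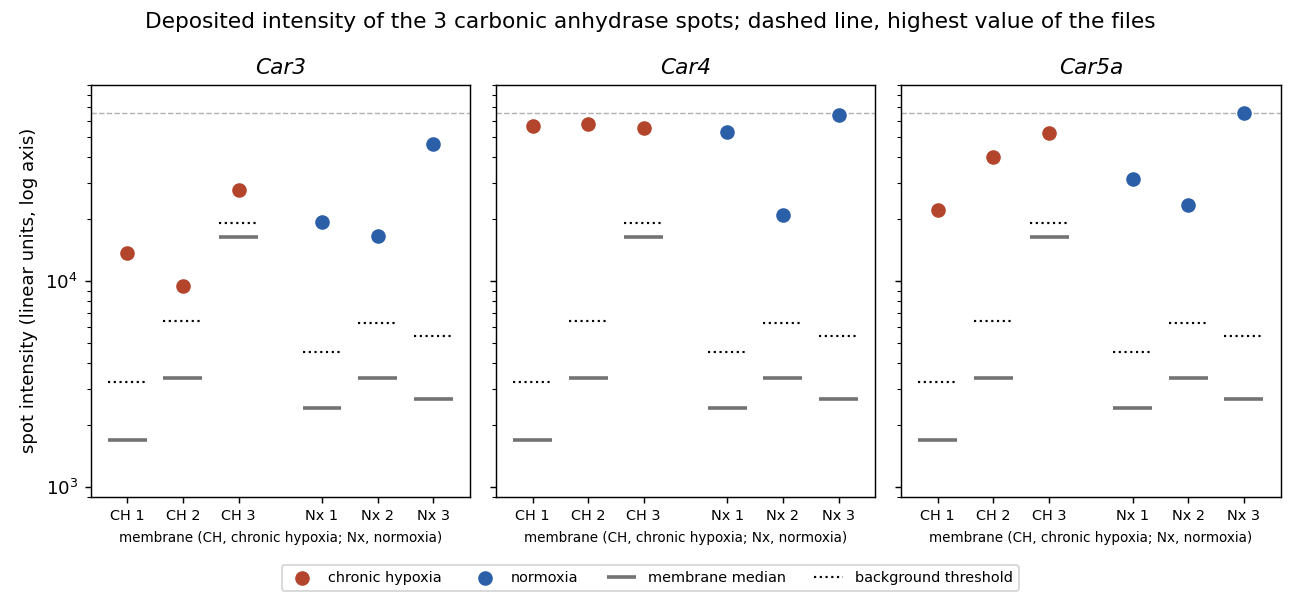
Deposited spot intensity (linear units on a log axis) of Car3, Car4 and Car5a on chronic hypoxia membranes 1 to 3 and normoxia membranes 1 to 3, with each membrane's median (grey bar), its background threshold (dotted bar) and the highest value of the files (dashed line). All 18 points lie above the threshold of their membrane, and the background of chronic hypoxia membrane 3 (median 16411) is the highest.

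**Figure D2:**
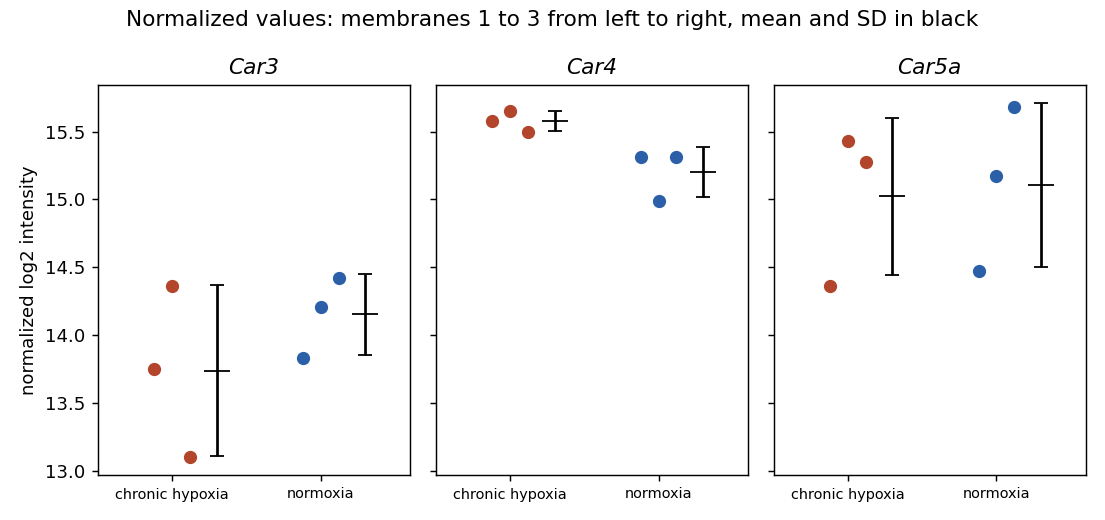
Normalized log2 intensity of the 3 genes in chronic hypoxia and normoxia, 1 point per membrane, with the mean and SD in black (n = 3 each). The groups are apart for Car4 (15.58 against 15.20), as for 13.9% of the 1038 genes tested, and overlap for Car3 and Car5a. Before normalization the Car4 groups overlap.

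None of the 3 genes was called between chronic hypoxia and normoxia, and neither was any other gene on the array. By limma, an adjusted p under 0.05 was reached by 0 of 1038 genes (0%), and 75 (7.23%), none of them a carbonic anhydrase, had an unadjusted p under 0.05. The intervals above draw on the spread of all genes tested. They still allow changes of more than 2-fold in either direction for Car5a. They also allow a rise of that size for Car4 and a fall of that size for Car3. The authors' deposited table, which holds 1 value per condition and no spread, listed Car4 at 59457 in chronic hypoxia and 39395 in normoxia, a ratio of 1.51. The authors' deposited table lists 132 genes above 0 in both conditions, and 24 of them, Car4 itself included, had at least the Car4 ratio. The authors' deposited table listed Car3 at 19568 in chronic hypoxia and 23413 in normoxia (ratio 0.836). In the authors' deposited table Car5a had 33711 in chronic hypoxia and 34288 in normoxia (ratio 0.983).

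Intensities below the membrane median lie near multiples of an approximate step, and the membranes were grouped by its size with a tolerance of 1 intensity unit. The step was 51.5 on chronic hypoxia membrane 1 and normoxia membrane 1, 103.5 on chronic hypoxia membrane 2 and normoxia membrane 2, 103 on normoxia membrane 3, which was placed with the second group, and 72.5 on chronic hypoxia membrane 3, which stands alone. Car4 had a higher mean in chronic hypoxia within both groups, by 0.28 in the first and 0.50 in the second. For Car3 the differences were -0.08 and 0.04, and for Car5a -0.12 and 0.00. With the step size as a block, which leaves out chronic hypoxia membrane 3, the differences were 0.40 for Car4, -0.01 for Car3 and -0.05 for Car5a, and none passed (limma adjusted p = 0.916, 0.997 and 0.994). With normoxia membrane 3 left out as well (an alternative added later), the blocked differences were 0.47 for Car4, 0.03 for Car3 and 0.07 for Car5a. The differences between chronic hypoxia membrane 2 and normoxia membrane 2 were then 0.66 for Car4, 0.15 for Car3 and 0.26 for Car5a.

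Whether the family members changed unequally was examined as log2 differences within each membrane, over 3 pairs. Car4 minus Car3 was 1.83, 1.29 and 2.41 on the chronic hypoxia membranes and 1.48, 0.77 and 0.89 on the normoxia membranes. The chronic hypoxia mean was 0.79 higher and the groups overlapped on 1 normoxia membrane (exact permutation p = 0.2, adjusted over the pairs 0.6). The difference between conditions was 0.33 for Car5a minus Car3 (exact permutation p = 0.7, adjusted 0.7) and -0.46 for Car5a minus Car4 (exact permutation p = 0.5, adjusted 0.7). Neither pair separated the conditions beyond the spread between membranes.

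The 3 carbonic anhydrases lie side by side on the membrane, at positions C10d, C10e and C10f, in a region where almost every spot was bright. In row C10, 13 of 14 spots were above background on at least 3 membranes, all except calmodulin. Over rows C09 to C11 it was 40 of 42 spots (95.2%), against 112 of 1143 (9.8%) on the rest of the array. Row C08 had 0 of 14 and row C12 had 6 of 14. These rows hold genes of unlike function, from arginase and glutathione enzymes in C09 to ribosomal proteins in C11. The spot after Car5a, 11-beta-hydroxysteroid dehydrogenase 2, an enzyme that inactivates corticosterone, had a difference of 0.03 (SE 0.52), and the spot before Car3, the copper-binding ceruloplasmin, one of 0.39 (SE 0.59). The part of spot position or of signal from neighbouring spots in the carbonic anhydrase values was not tested.

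Of the 11 other spots of row C10, 9 had a higher mean in chronic hypoxia, among them dopamine beta-hydroxylase (1.08, SE 0.55) and alkaline phosphatase (1.05, SE 0.59), while calmodulin (-0.80) and uricase (-0.67) had a lower one. Their median difference was 0.26 against 0.03 over the 1038 genes tested, of which 500 were lower, and 0 of the 11 passed. The direction of Car4 relative to its row depended on how the row level was taken, and both row levels were introduced after the data were seen. Relative to the mean of the 11 spots, Car4 stood at 0.90 ± 0.05 in chronic hypoxia and 0.75 ± 0.34 in normoxia (SD, n = 3 each), a difference of 0.16 (exact permutation p = 0.9). Relative to their median, it stood at 0.15 ± 0.26 in chronic hypoxia and 0.48 ± 0.53 in normoxia (SD, n = 3 each), a difference of -0.33 (exact permutation p = 0.3). That median is 1 spot per membrane, dopamine beta-hydroxylase on chronic hypoxia membranes 1 and 3 and normoxia membrane 1 and GABA transaminase on the others, and it was 0.71 higher in chronic hypoxia, whereas the mean was 0.22 higher. Car3 differed by -0.64 relative to the mean, with overlapping groups (exact permutation p = 0.3), and by -1.13 relative to the median, without overlap (exact permutation p = 0.1). The row median itself did not overlap between the conditions. The -1.13 of Car3 is its plain difference of -0.42 minus the 0.71 of the row median. The cause of the row median's difference was not tested. No share over all genes was taken for row-relative values. On the plain normalized values 144 of the 1038 genes tested (13.9%) did not overlap, and Car3 did. For Car5a the differences relative to the mean and the median were -0.30 (exact permutation p = 0.6) and -0.79 (exact permutation p = 0.3).

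**Figure D3:**
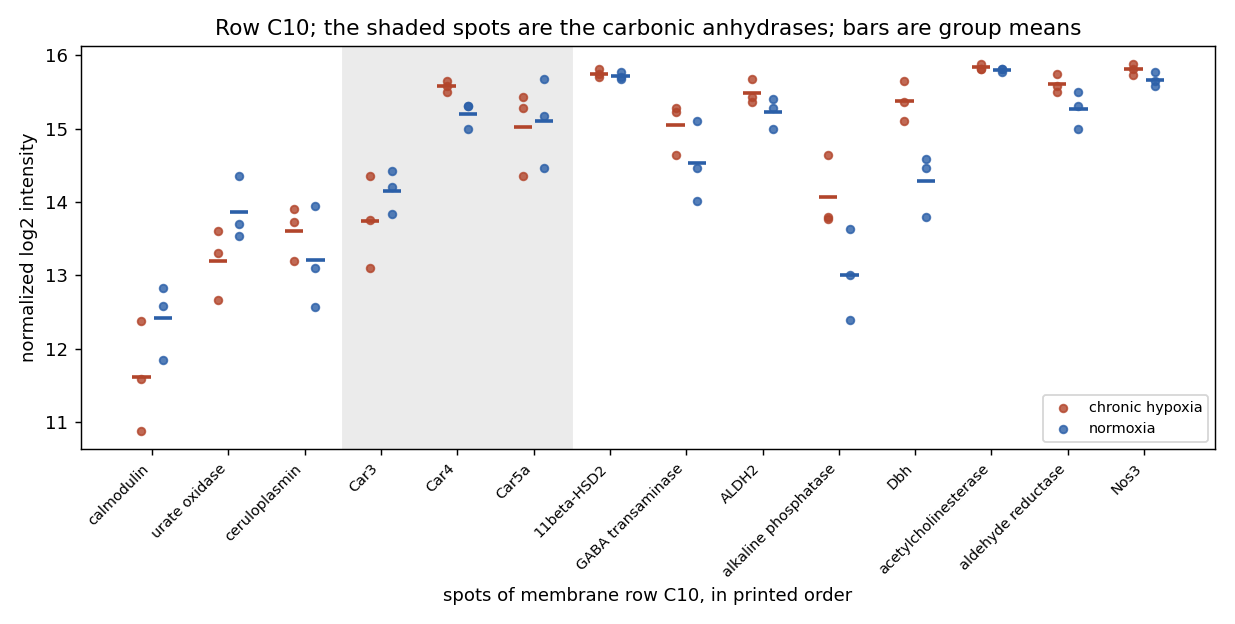
Normalized log2 intensity of the 14 spots of membrane row C10 in printed order, 1 point per membrane, chronic hypoxia left and normoxia right at each spot, bars showing group means and grey shading the carbonic anhydrases. Of the 11 other spots 9 have a higher mean in chronic hypoxia.

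**Figure D4:**
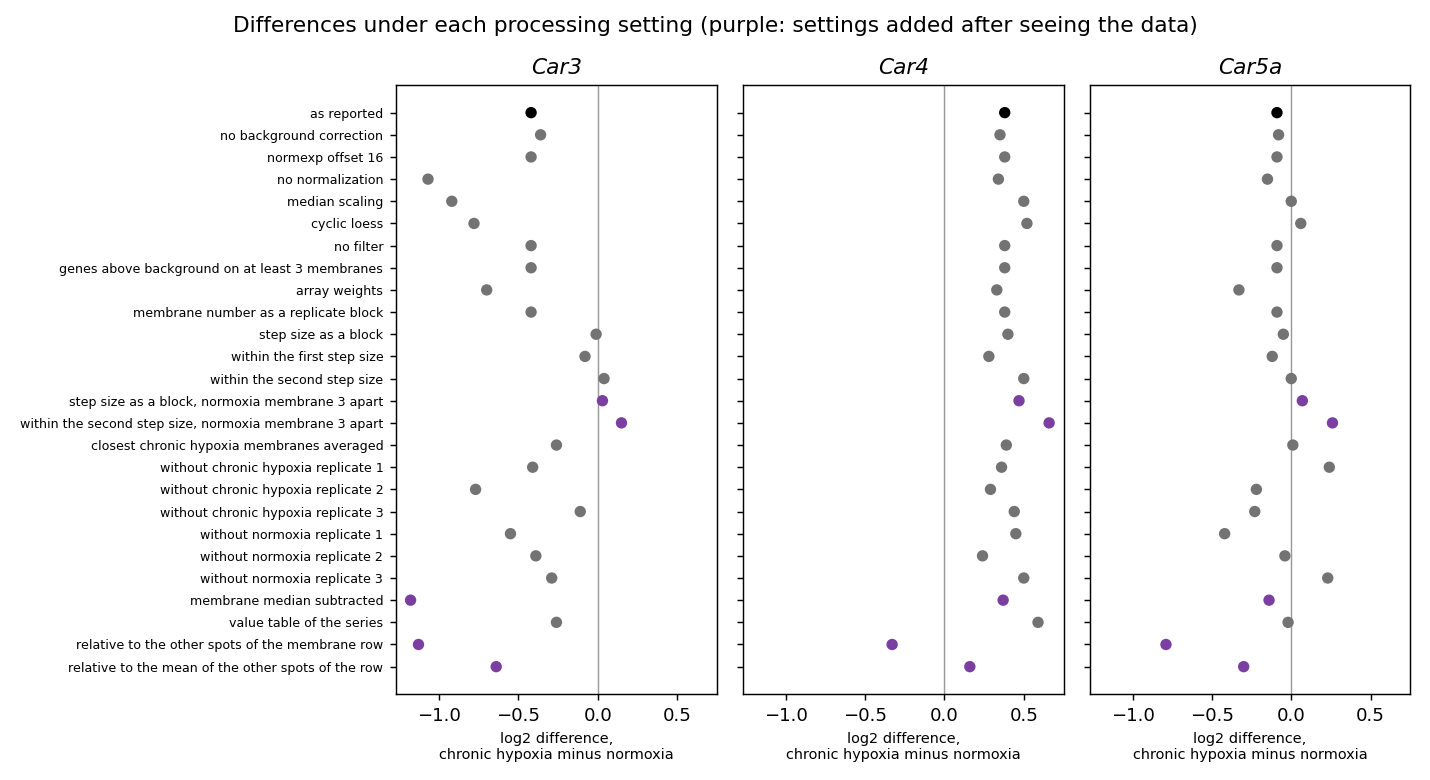
Log2 difference, chronic hypoxia minus normoxia, of Car3, Car4 and Car5a under each processing setting (rows), with the reported value in black. Car4 lies above 0 in all settings except relative to the median of the other spots of its row (-0.33), Car3 lies between -1.18 and 0.15, and Car5a lies on both sides of 0.

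The genes whose profile over the 6 membranes was most like that of each carbonic anhydrase were sought among the 149 other spots above background on at least 3 membranes, by the root mean square distance between log2 profiles centred on their means. For Car4 the nearest was short chain acyl-CoA dehydrogenase, an enzyme of mitochondrial fatty acid oxidation in row C09, at a distance of 0.07 against a median of 0.80 over all candidates. Its intensity was 59887, 64863 and 60923 in chronic hypoxia and 54979, 24675 and 64876 in normoxia, with the same low normoxia membrane 2, and its difference was 0.38 (SE 0.52). The next were Nos3, endothelial nitric oxide synthase (0.16), and 11-beta-hydroxysteroid dehydrogenase 2 (0.20), both in row C10. Their normalized log2 intensity varied little, from 15.58 to 15.88 for Nos3 and from 15.68 to 15.81 for 11-beta-hydroxysteroid dehydrogenase 2. Their differences were 0.14 (SE 0.52) and 0.03 (SE 0.52). Both spots stood at the highest value the files can hold on normoxia membrane 3. The small distances of such nearly flat profiles do not show that these genes changed with Car4. For Car3 the nearest were interleukin 13 (0.23), aldolase B (0.28) and carboxypeptidase E (0.30), against a median of 1.00, and for Car5a the regulatory subunit of glutamate-cysteine ligase (0.19), synaptotagmin XI (0.28) and carboxypeptidase E (0.29), against a median of 0.94. The 3 carbonic anhydrases lay 0.53 to 0.56 from each other, below the median candidate distance of each (0.80 to 1.00). A distance of this kind also shrinks where both profiles vary little between membranes, so these values do not show likeness within the family. The genes named above are the nearest of 149 by selection, so their smaller distances are no standard for the distances within the family.

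Proteins that move acid and bicarbonate across membranes work with carbonic anhydrases. Of 19 such genes on the array (anion exchangers, sodium-hydrogen exchangers, a monocarboxylate transporter and proton and sodium pumps) 17 were above background on no membrane, and 1 on at least 3. Of all 1185 spots, 867 were above background on no membrane and 152 (12.8%) on at least 3. The 1 listed gene above background on at least 3 was Atp6v1f, a subunit of the vacuolar proton pump. It had 11.75 ± 0.98 (SD, n = 3) in chronic hypoxia and 13.32 ± 1.86 (SD, n = 3) in normoxia, which differ by -1.57 (SE 0.91, limma adjusted p = 0.654). The chloride-bicarbonate exchanger Slc4a3 was above background on 1 normoxia membrane. Slc4a1 and Slc4a2 of the same family, the lactate transporter Slc16a1 and the sodium pump subunit Atp1b1 were above background on none. Of the 11 members tested, 6 were higher and 5 lower in chronic hypoxia with a median of 0.22, against 500 of all 1038 genes lower and a median of 0.03, and 0 passed. Slc16a1 and Atp1b1, with the smallest p in the list beside Atp6v1f, had differences of 1.30 (SE 0.67) and 1.07 (SE 0.57) between spots at background, both with a limma adjusted p of 0.645.

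Enzymes that use bicarbonate, or lie in the pathways it enters, were represented by 4 genes, 2 of them above background on no membrane. Over all spots it was 867 of 1185. In chronic hypoxia 1 was higher and 3 lower, with a median of -0.84, and 0 passed. Of all 1038 genes tested 500 were lower, with a median of 0.03, and 0 passed. By limma, 2 of the 4, arginase 1 and acetyl-CoA carboxylase, had an unadjusted p under 0.05, against 75 of all genes tested (7.23%). Arginase 1, the last enzyme of the urea cycle, had 12.20 ± 0.25 (SD, n = 3) in chronic hypoxia and 14.29 ± 1.45 (SD, n = 3) in normoxia, which differ by -2.09 (SE 0.74, limma adjusted p = 0.645). It sits in row C09, where its intensity was 4551, 5057 and 20719 in chronic hypoxia and 56381, 7227 and 53590 in normoxia, high on normoxia membranes 1 and 3 and low on normoxia membrane 2. Arginase 2, the mitochondrial form, had a difference of -0.14 (SE 0.63). Acetyl-CoA carboxylase, which uses bicarbonate in fatty acid synthesis, and liver fructose bisphosphatase of gluconeogenesis were above background on no membrane, with differences of -1.54 (SE 0.67) and 0.67 (SE 0.53).

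Because the treatment was low oxygen, windows around annotated gene starts were searched for ACGTG and GCGTG, the core letters bound by hypoxia-inducible factors, on both strands, from 250 bases before to 50 bases after the start (RefSeq sequences, GRCr8). The table held windows for Car4 and Car5a and not for Car3. The Car4 window held 2 matches, shown here on the gene's strand with the match in capitals. They begin 237 and 21 bases before the start used for the window, which lies 256 bases inside the Car4 gene record, so both matches fall within that record.
Car4 distal match, chr10:70325111-70325135, plus strand: tgggtcaggtACGTGaggatagctc
Car4 proximal match, chr10:70325327-70325351, plus strand, ACGTG on the opposite strand: agccgcctccCACGTcctgccgtcc
The Car5a window (chr19:66911437-66911736, minus strand) held 0. Of all 27457 windows 42.9% held at least 1 match, so the matches describe the sequence and do not set Car4 apart.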

How the data were processed

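The authors deposited, for each membrane, 1 linear intensity per gene, quantified from phosphorimager exposures with AtlasImage V2.0, per the series' design text. The values include background and are not scaled between membranes. The authors' deposited table gives 1 intensity per condition, averaged over 3 membranes and normalized with a coefficient built on the mean signal, per the series' design text. The sources used here do not give its background step.

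From the membrane intensities, background was corrected with normexp (offset 50), followed by log2 and quantile normalization over the 6 membranes (limma 3.58.1, R 4.3.3). The 1038 genes brighter than the 25th percentile of their membrane on at least 3 membranes were tested with lmFit and eBayes, group as the only term, Benjamini-Hochberg adjustment and a threshold of 0.05. Log2 differences understate changes of dim spots and of spots near the ceiling. For single values, exact permutation tests (two-sided) ran over the 20 assignments of membranes to conditions. The script was tested on simulated data with 3 against 3 membranes and 200 changed genes. It called 0.475% of the genes changed by 1 on the log2 scale and 46.9% of those changed by 2. A count of 0 genes called therefore says little about changes of 2-fold. Precision is limited by the 3 arrays of each condition. Figures were drawn with matplotlib 3.10.9 in Python 3.11.15.

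The members, the gene lists and the rules for named genes were chosen with earlier results of these data known. The text names all carbonic anhydrase spots, list members above background on at least 3 membranes or with the 3 smallest p of their list, the nearest profiles, spots beside the carbonic anhydrases and markers above background. Other names (the remaining transporters, the markers at background, and calmodulin and alkaline phosphatase of row C10) were chosen after their values were seen. Gene symbols were assigned by hand from the deposited names and found in the rat RefSeq table of GRCr8. The probe sequences on the membranes were not used here.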

Additional observations from a re-analysis of the deposited data

How the results depend on the processing

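In limma 0 genes were called under each of the 18 alternatives with a test, with 10 (of the 152 genes above background) to 146 genes (array weights) at an unadjusted p under 0.05 and the lowest adjusted p, 0.0512, without normalization. The lowest adjusted p of a carbonic anhydrase was 0.569, for Car3 with array weights. Car4 was higher in chronic hypoxia under 24 of 25 alternatives. It was 0.59 in the value table of the series, -0.33 and 0.16 relative to the median and the mean of the other spots of its row, and 0.24 to 0.50 with 1 membrane left out. Car3 was -1.18 with the membrane median subtracted and -1.13 relative to its row median, and -0.77 to -0.11 with 1 membrane left out. Car5a turned to 0 with median scaling (a positive value before rounding), 0.06 with cyclic loess and 0.01 with the closest chronic hypoxia membranes averaged. It was -0.79 relative to its row median, and -0.42 to 0.24 with 1 membrane left out. The median of the transport list was -1.57 with only genes above background (1 gene), 1.01 and -0.39 within the first and second step size, and -0.06 to 0.29 with 1 membrane left out. The second list holds the 4 enzymes that use bicarbonate or lie in the pathways it enters. Its median was -0.39 without background correction, -1.29 without normalization, -1.28 with array weights, -0.26 within the second step size and -1.29 to -0.48 with 1 membrane left out. With normoxia membrane 3 apart, the step block gave 0.03 for Car3 and 0.07 for Car5a. Within the second step size it then gave 0.15 for Car3, 0.66 for Car4, and -0.11 for both list medians. The cause of these shifts was not tested. Without normalization the median of all genes shifted by -0.17, so the Car4 difference of 0.34 there was higher and the Car3 difference of -1.07 lower than that shift.

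The membrane numbers are shared between the conditions. With the membrane number as a replicate block the differences were 0.38 for Car4, -0.42 for Car3 and -0.09 for Car5a, with 0 genes called and 83 at an unadjusted p under 0.05, and the list medians were 0.22 and -0.84. Deviations of same-numbered membranes correlated at 0.09, 0.11 and 0.02, and those of differently numbered membranes at -0.12 to 0.03. All were small, and the numbers were not taken as pairs in the main test. Whether same-numbered membranes shared a run was not tested. The membrane median, the row levels and the setting apart of normoxia membrane 3 were chosen after the data were seen.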
